A study of Sus scrofa with 15 samples.

Results

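NRF2, the transcription factor encoded by NFE2L2, is kept scarce in unstressed cells by the adaptor KEAP1, which hands it to a CUL3 ubiquitin ligase. Under oxidants or electrophiles it accumulates, pairs with small MAF proteins and raises genes that carry an antioxidant response element, while BACH1 competes for the same elements. The products make glutathione, reduce thioredoxin, detoxify quinones, break down heme and store iron in ferritin, a hollow protein shell of light and heavy chains. In the intestinal epithelium ferritin also buffers dietary iron, and ferritin translation is held down by iron regulatory proteins when iron is scarce, a layer that RNA levels do not show.

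Here 10 such genes, chosen by name, were followed in pig epithelial cells. They are 10 of the 19000 genes in one deposited table and of the 17001 in the other, and each was found in both by its NCBI Gene number. They are the ferritin chains FTL and FTH1, the heme-degrading enzymes HMOX1 and BLVRA, the quinone reductase NQO1, the glutathione-synthesis subunits GCLC and GCLM, the thioredoxin-system enzymes TXNRD1 and SRXN1, and OSGIN1. The rule takes them by name and uses no measured value, although the names were picked with earlier results of these data known. All 10 passed the filter on low values in both tables, which asked for at least 1 FPKM (fragments scaled to transcript length and to the library's mapped fragments) in at least 3 libraries.

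The cells were IPEC-J2, an untransformed epithelial line taken from piglet jejunum, and RNA sequencing of total RNA gave 15 libraries in 5 groups of 3. Every group carried a lentiviral vector. In the knockdown table Lv133KD, the miR-133 knockdown vector, and Lv143KD were set against the control vector Lv3NC. In the overexpression table OV143, which overexpresses miR-143, was set against its control vector Lv20NC. The labels and the design text disagree on Lv143KD, for which the design text names miR-133 as the target, so that target is unsettled. Neither table has an entry for a microRNA, so the action of the vectors was not checked. The labels give no age of culture, time after transduction or clone, and leave unsaid whether the 3 libraries in a group are separate cultures. The p-values therefore measure the spread among these libraries, which may be technical.

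On the pig assembly Sscrofa11.1 the 10 genes are spread over the genome, and 3 are on chromosome 6. These are FTL at 54231121 to 54232756, NQO1 at 17292962 to 17302593 and OSGIN1 at 4642762 to 4656113. FTH1 lies on chromosome 2 at 9535051 to 9537979, GCLM on chromosome 4 at 123371198 to 123390130 and TXNRD1 on chromosome 5 at 80170334 to 80213889. GCLC lies on chromosome 7 at 27209565 to 27253535, SRXN1 on chromosome 17 at 34582377 to 34589308 and BLVRA on chromosome 18 at 51131576 to 51185493. HMOX1 is on an unplaced sequence of this assembly. The values are per gene, so no exon or untranslated region can be singled out.

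The libraries had an epithelial profile: 7 of 7 epithelial markers reached 1 FPKM in at least 3 libraries of each table, with a summed level of 1682 to 2840 FPKM in the knockdown table and 2310 to 3400 FPKM in the overexpression table. Of the markers of other cell types, 1 of 7 fibroblast, 2 of 7 leukocyte, 1 of 4 muscle and no erythroid marker reached that level. Of 5 endothelial markers 3 did so in the knockdown libraries and 2 in the overexpression libraries. Some markers had no entry: each table listed only 2 of 4 erythroid markers. The overexpression table listed 5 of 7 fibroblast, 6 of 7 leukocyte and 3 of 4 muscle markers. PTPRC and MYOD1 were listed at 0 in the knockdown table. Between 11250 and 11557 genes reached 1 FPKM per library. The libraries have 2 features that touch the results below. In the knockdown table the 3 replicate 2 libraries differ widely from replicates 1 and 3 in every group. On the first principal component of that table they lay at -22.9 to -18.4. Replicate 1 lay at -4.06 to 7.79 and Lv133KD replicate 3 at 0.73. Replicate 3 of Lv143KD (28.2) and of Lv3NC (32.0) lay far out on the other side, so replicates 1 and 3 also differ there. In the overexpression table OV143 replicate 2 stands apart, with an FPKM sum of 662022 against 518578 to 558042 in the other libraries of that table and a score of 39.6 on a first principal component where the others lie between -15.3 and 1.06.

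The ferritin chains were by far the most abundant of the 10 genes. FTL averaged 4612 ± 1005 FPKM over the 9 knockdown libraries and 5583 ± 1020 FPKM (SD) over the 6 overexpression libraries. It ranked between 1st and 6th of all genes in the knockdown libraries and between 3rd and 5th in the overexpression libraries. FTH1, the heavy chain with ferroxidase activity, averaged 1494 ± 149 and 3105 ± 564 FPKM in the same tables. The levels of the chains did not overlap in either table. Both chains together made up 1.03% to 1.43% of the FPKM sum of a knockdown library and 1.39% to 1.77% of an overexpression library. Of their close relatives, mitochondrial ferritin FTMT was listed at 0 in all 9 knockdown libraries and FTHL17 reached at most 0.07 FPKM. How reads shared with ferritin pseudogenes were counted is not given in the sources used here, so these levels carry that uncertainty.

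The other 8 genes were far lower. In the knockdown table the order by mean FPKM was SRXN1 at 40.2, NQO1 at 27.1, GCLM at 25.8, TXNRD1 at 22.0, BLVRA at 12.9, GCLC at 7.03, HMOX1 at 5.30 and OSGIN1 at 3.85. In the overexpression table it was GCLM at 39.8, NQO1 at 37.6, SRXN1 at 30.2, TXNRD1 at 23.6, BLVRA at 22.0, GCLC at 8.77, HMOX1 at 2.90 and OSGIN1 at 2.46. Neighbours in these orders overlapped in range, except TXNRD1 and BLVRA in the knockdown table, and BLVRA and GCLC as well as GCLC and HMOX1 in the overexpression table. HMOX1, the inducible heme oxygenase, reached 6.24 FPKM at most, while HMOX2, the constitutive enzyme, was at 14.3 to 18.4 FPKM in the knockdown table and 14.3 to 26.2 FPKM in the overexpression table.

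The genes also differed in how much they varied between libraries. In the knockdown table the coefficient of variation was 49.8% for NQO1 and 44.3% for OSGIN1, but 7.23% for TXNRD1 and 9.98% for FTH1. NQO1 spanned 3.01-fold and OSGIN1 3.62-fold between the lowest and the highest library, against 1.23-fold for TXNRD1. In the overexpression table OSGIN1 had the largest coefficient of the 10 genes, at 35.5%, and NQO1 was at 18.5%.

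**Figure D1:**
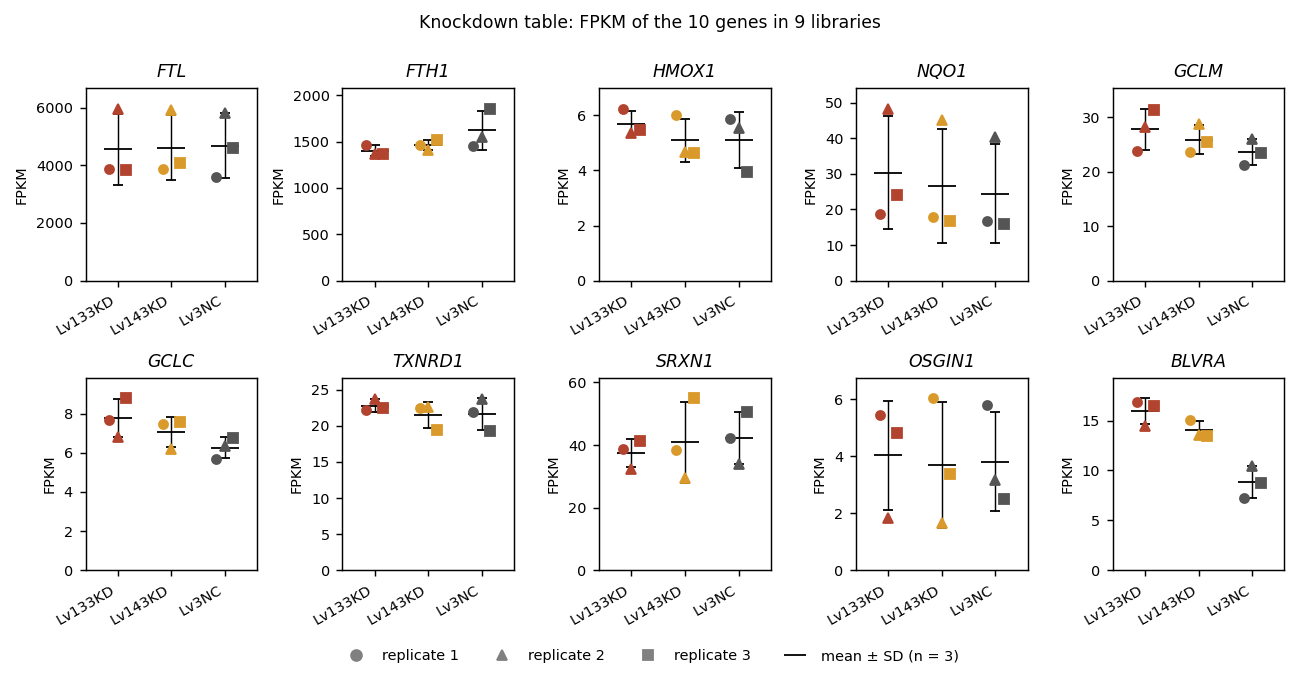
FPKM of the 10 genes in the 9 knockdown-table libraries by group (Lv133KD, Lv143KD, Lv3NC), each panel with its own linear axis from 0; marker shape gives the replicate number, and the line and bar are the mean and SD (n = 3). BLVRA is higher in all 6 knockdown libraries (13.5 to 16.9 FPKM) than in Lv3NC (7.23 to 10.5 FPKM), and FTL and NQO1 are highest in the replicate 2 library of every group.

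The knockdown vectors were compared with their control to ask which genes respond to the loss of a microRNA. In the Lv133KD libraries the clearest difference among the 10 genes was in BLVRA, biliverdin reductase A, which turns the biliverdin released by heme oxygenase into bilirubin. BLVRA was at 16.9, 14.5 and 16.5 FPKM in Lv133KD libraries 1 to 3, against 7.23, 10.5 and 8.75 FPKM in Lv3NC libraries 1 to 3. The groups did not overlap: the lowest Lv133KD library was above the highest Lv3NC library. Lv133KD averaged 15.9 ± 1.29 FPKM, Lv3NC 8.82 ± 1.63 FPKM (SD over 3 libraries each), a difference of 0.80 on the log2(FPKM + 1) scale (SE 0.13). On this scale the change of low genes is understated.

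Whether BLVRA passed the test depended on the fit. The adjusted p from limma, with Benjamini-Hochberg adjustment over 11645 genes, was 0.227. Libraries with the same replicate number deviated together, and with the number as a block the adjusted p was 0.0446, so that BLVRA rose in Lv133KD under that fit. It was also called when libraries were weighted by their quality (1.02, adjusted p = 0.00138), where 1.76% of all tested genes were called. It was higher in 3 of 3 pairs of the same number. The call with the block was lost when the libraries of number 1 (adjusted p = 0.494) or of number 3 (0.0672) were left out, and it held without number 2 (0.0486). Without the block the adjusted p stayed between 0.0997 and 0.965 when any 1 library was left out, and the log2 difference between 0.68 and 0.92.

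In limma no gene of the 10 was called in Lv133KD against Lv3NC without the block, where 0.0172% of all tested genes were called, and 1 reached an unadjusted p under 0.05, against 3.26% of all tested genes. In the fit with the block 1 of 10 was called, against 0.258% of all tested genes, and 4 reached an unadjusted p under 0.05, against 16.5%. Of the 10 genes, 2 had all Lv133KD libraries above all Lv3NC libraries and none the reverse, where 8.02% of all tested genes did not overlap and 4.69% were above. The second was GCLC, the catalytic subunit of the enzyme that starts glutathione synthesis. GCLC was at 7.67, 6.83 and 8.78 FPKM in Lv133KD libraries 1 to 3, against 5.68, 6.34 and 6.77 FPKM in Lv3NC libraries 1 to 3. The gap between the closest libraries was small, 6.83 against 6.77 FPKM, and the log2 difference of 0.27 (SE 0.13) had an adjusted p of 0.926, or 0.251 with the block.

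GCLM, the modifier subunit of the same enzyme, was at 23.8, 28.2 and 31.4 FPKM in Lv133KD libraries 1 to 3, against 21.3, 26.1 and 23.5 FPKM in Lv3NC libraries 1 to 3. NQO1, which reduces quinones without releasing semiquinone radicals, was at 18.8, 48.3 and 24.1 FPKM in Lv133KD, against 16.7, 40.5 and 16.04 FPKM in Lv3NC. Both were higher in 3 of 3 pairs of the same number, while their groups overlapped. Neither was called: the log2 difference was 0.22 for GCLM and 0.32 for NQO1, with adjusted p of 0.273 and 0.22 with the block. The remaining 6 genes lay between -0.21 for FTH1 and 0.14 for HMOX1. Over the 10 genes 7 were higher and 3 lower in Lv133KD, where 52.3% of all tested genes were higher. The median log2 difference was 0.11, against 0.01 over all tested genes. By pairs of the same number, NQO1, GCLM, GCLC, TXNRD1 and BLVRA were higher in 3 of 3, and SRXN1 was lower in 3 of 3. The share of all tested genes with 3 of 3 pairs in 1 direction is not given here for any comparison.

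BLVRA also separated the Lv143KD libraries from the control. It was at 15.0, 13.6 and 13.5 FPKM in Lv143KD libraries 1 to 3, against the 7.23, 10.5 and 8.75 FPKM of Lv3NC given above. The lowest Lv143KD library was again above the highest Lv3NC library. The mean was 14.0 ± 0.872 FPKM in Lv143KD and 8.82 ± 1.63 FPKM in Lv3NC (SD, n = 3 each), a log2 difference of 0.63 (SE 0.13). The adjusted p was 0.651, or 0.150 with the block. BLVRA was called only when libraries were weighted (0.88, adjusted p = 0.00396), where 0.601% of all tested genes were called. Both knockdown comparisons use the same 3 Lv3NC libraries, so the higher BLVRA in each is not 2 independent observations.

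Without the block limma called none of the 10 genes in Lv143KD against Lv3NC, where 0.0172% of all tested genes were called, and 1 of 10 reached an unadjusted p under 0.05, against 1.79% of all tested genes. In the fit with the block the counts were again 0 and 1, against 0.172% and 5.74% of all tested genes. BLVRA was the only 1 of the 10 whose groups did not overlap, against 4.14% of all tested genes. The other 9 genes had log2 differences between -0.14 for FTH1 and 0.15 for GCLC. The median was -0.00 over the 10 genes, with 5 higher and 5 lower where 44.2% of all tested genes were higher, against -0.01 over all tested genes.

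Set directly against each other, the knockdown vectors showed no called difference in these genes. None of the 10 was called with or without the block, where 0% of all tested genes were called in both, and no member's groups were apart, against 2.66% of all tested genes. Without the block 0 of 10 reached an unadjusted p under 0.05, against 0.129% of all tested genes, and with it 1 did, NQO1, against 1.79%. The difference was above 0 for 7 of 10, where 58.2% of all tested genes were above 0. For BLVRA the difference of Lv133KD minus Lv143KD was 0.17 on the log2 scale, with a 95% interval of -0.13 to 0.47. NQO1 had the largest difference, 0.22, and the widest intervals were those of NQO1, -0.87 to 1.32, and OSGIN1, -0.81 to 1.07. A missed call therefore does not show that the vectors act alike on those genes.

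The regulators and partners of the pathway were followed as a list of 76 further genes, of which 74 were in the knockdown table and 67 passed the filter. None of the 67 was called in Lv133KD or Lv143KD against Lv3NC, or between the knockdown vectors, in the unweighted fits of all libraries with or without the block. In Lv133KD against Lv3NC 34 were higher and 33 lower, with a median of 0.00. NFE2L2 was at 16.5, 11.6 and 19.8 FPKM in Lv133KD libraries 1 to 3, at 19.1, 11.6 and 20.6 FPKM in Lv143KD and at 21.7, 12.9 and 19.5 FPKM in Lv3NC. The groups overlapped, and the NFE2L2 log2 differences were -0.17 in Lv133KD and -0.08 in Lv143KD against Lv3NC. KEAP1 differed by 0.37 and 0.10 and BACH1 by 0.02 and -0.02 in the same comparisons. TFRC, the transferrin receptor that brings iron into cells, was at 15.6, 19.5 and 17.5 FPKM in Lv133KD, against 11.97, 15.3 and 7.92 FPKM in Lv3NC. Its groups did not overlap, and the log2 difference of 0.58 had an adjusted p of 0.926, or 0.191 with the block. NCOA4, the receptor that delivers ferritin to lysosomes, differed by 0.03 and 0.02. The iron exporter SLC40A1 was below the filter at 0.24 to 0.55 FPKM.

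**Figure D2:**
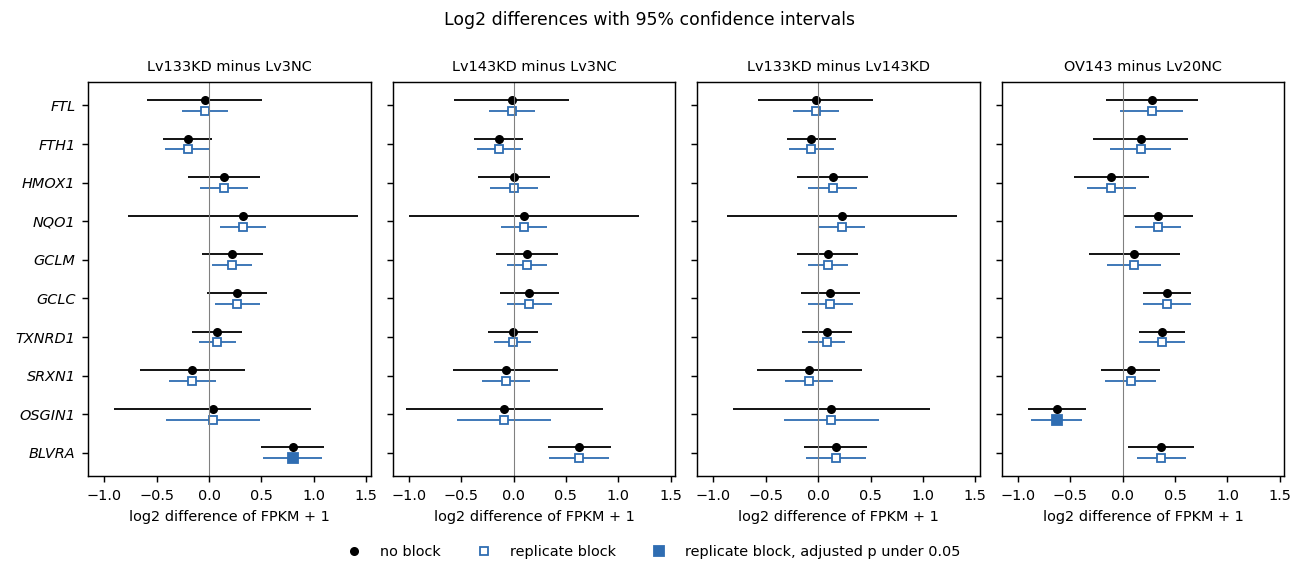
Log2 differences of FPKM + 1 with 95% confidence intervals for the 10 genes in 4 comparisons, without the block (circles) and with the replicate number as a block (squares, filled where the adjusted p is under 0.05). BLVRA lies at 0.80 and 0.63 in the knockdown comparisons, and OSGIN1 at -0.63 in OV143 against Lv20NC; the block narrows the intervals of NQO1 and FTL in the knockdown table.

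The overexpression table asks which genes follow a gain of miR-143. Here OSGIN1, an oxidative stress induced growth inhibitor, was lower, while GCLC, TXNRD1, BLVRA, NQO1 and FTL were higher in all 3 OV143 libraries. Thus 6 of the 10 genes had groups that did not overlap, 5 above and 1 below, where 21.9% of all tested genes did not overlap, 8.96% above and 12.9% below. In limma none was called without the block, where 0% of all tested genes were called. At an unadjusted p under 0.05 the counts were 4 of 10 genes, against 11.3% of all tested genes. With the block 1 of 10 was called, OSGIN1, against 1.94% of all tested genes, and 5 reached an unadjusted p under 0.05, against 19.9% of all tested genes. OV143 replicate 2, the library that stands apart, enters all of these counts.

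**Figure D3:**
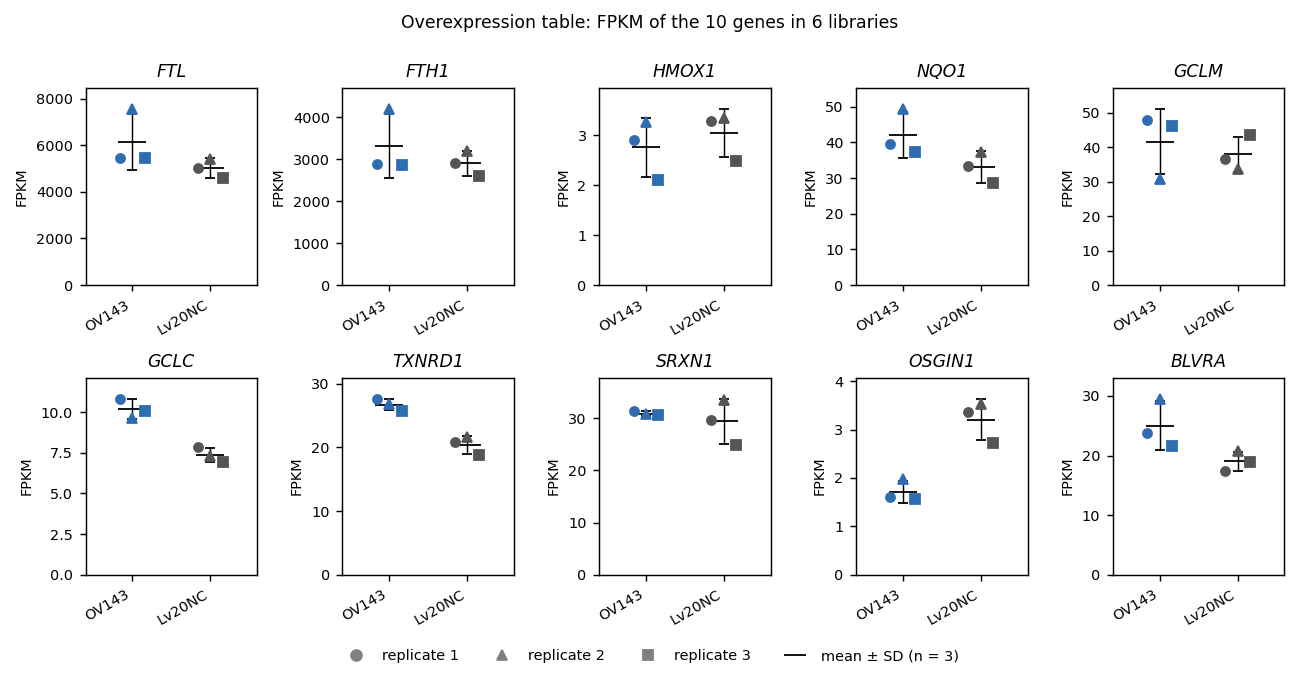
FPKM of the 10 genes in the 6 overexpression-table libraries by group (OV143, Lv20NC), each panel with its own linear axis from 0; marker shape gives the replicate number, and the line and bar are the mean and SD (n = 3). OSGIN1 is lower in all OV143 libraries (1.56 to 1.98 FPKM) than in Lv20NC (2.72 to 3.54 FPKM), GCLC and TXNRD1 are higher, and OV143 replicate 2 has the highest FTL, FTH1, NQO1 and BLVRA.

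OSGIN1 was at 1.60, 1.98 and 1.56 FPKM in OV143 libraries 1 to 3, against 3.36, 3.54 and 2.72 FPKM in Lv20NC libraries 1 to 3. Every OV143 library was below every Lv20NC library, at levels close to the filter. The log2 difference was -0.63 (SE 0.12), with an adjusted p of 0.152, or 0.0209 with the block, under which OSGIN1 fell. The block call held when the libraries of any 1 number were left out, with adjusted p of 1.1e-05 to 0.0167. Those fits had 1 residual degree of freedom and called 2.58% to 12.7% of all tested genes, against 1.94% with the block on all libraries. Without OV143 replicate 2 and with no block the difference was -0.70 and the adjusted p 0.00742, and leaving out any of the other 5 libraries gave adjusted p of 0.253 to 0.858.

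GCLC was at 10.8, 9.64 and 10.1 FPKM in OV143 libraries 1 to 3, against 7.84, 7.29 and 6.94 FPKM in Lv20NC libraries 1 to 3. TXNRD1, the cytosolic selenoenzyme that reduces thioredoxin, was at 27.6, 26.8 and 25.8 FPKM in OV143, against 20.9, 21.6 and 18.8 FPKM in Lv20NC. For both genes the gap between the groups was wider than the spread within either. The log2 difference was 0.42 (SE 0.10) for GCLC, with an adjusted p of 0.213, or 0.0697 with the block. For TXNRD1 it was 0.37 (SE 0.09), with an adjusted p of 0.232, or 0.0805 with the block. Neither was called in these fits. With libraries weighted by quality both were called on all 6 libraries, at 0.40 (adjusted p = 0.00255) for GCLC and 0.36 (0.00285) for TXNRD1. That weighted fit called 23.0% of all tested genes, and the estimate of the weights did not fully settle in 1 of the tables. Without OV143 replicate 2 both were called with equal weights, at 0.46 (adjusted p = 0.0191) for GCLC and 0.37 (0.0363) for TXNRD1. With OSGIN1 that made 3 of 10 genes, against 4.46% of all tested genes.

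BLVRA was at 23.9, 29.5 and 21.6 FPKM in OV143 libraries 1 to 3, against 17.5, 20.7 and 18.9 FPKM in Lv20NC libraries 1 to 3. The log2 difference was 0.37 (SE 0.13), with an adjusted p of 0.361, or 0.102 with the block, and it was 0.25 (0.155) without OV143 replicate 2. BLVRA was thus higher than its control in every library of Lv133KD, Lv143KD and OV143. The knockdown comparisons share the Lv3NC libraries. With the target of Lv143KD unsettled, these vectors are not known to act on the same microRNA. NQO1 was at 39.6, 49.3 and 37.3 FPKM in OV143, against 33.5, 37.3 and 28.5 FPKM in Lv20NC. The lowest OV143 library, 37.28 FPKM, was barely above the highest Lv20NC library, 37.25 FPKM, and the difference of 0.34 had an adjusted p of 0.440, or 0.105 with the block. It was 0.22 without OV143 replicate 2.

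FTL was at 5457, 7546 and 5440.2 FPKM in OV143 libraries 1 to 3, against 5031, 5428 and 4594 FPKM in Lv20NC libraries 1 to 3. The lowest OV143 library, 5440.2 FPKM, was only just above the highest Lv20NC library, 5428 FPKM. The log2 difference was 0.28 (SE 0.19, adjusted p = 0.604, or 0.285 with the block), and it was 0.12 (0.581) without OV143 replicate 2. FTH1 was at 2891, 4191.5 and 2854 FPKM in OV143, against 2908, 3184 and 2601 FPKM in Lv20NC. These groups overlapped, with a difference of 0.17 (SE 0.19), or -0.01 without OV143 replicate 2. The ratio of FTL to FTH1 was nevertheless higher in each of these OV143 libraries than in any Lv20NC library. It was 1.89, 1.80 and 1.91 in OV143 libraries 1 to 3, against 1.73, 1.70 and 1.77 in Lv20NC libraries 1 to 3. The two-sided exact permutation test gave p = 0.1, the smallest that 3 against 3 libraries allow. That test could not reach the threshold for a call, and the ratio was chosen after the values were seen. Whether the ratio differs beyond these libraries is therefore undecided.

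The modifier subunit of glutamate-cysteine ligase differed less clearly than the catalytic one, and its value depended on 1 library. GCLM was at 47.9, 30.7 and 46.2 FPKM in OV143 libraries 1 to 3, against 36.6, 33.6 and 43.7 FPKM in Lv20NC libraries 1 to 3. OV143 replicate 2 was the lowest of the 6 libraries and the groups overlapped, with a log2 difference of 0.11 (SE 0.19, adjusted p = 0.832). Without that library it was 0.31 (0.115), beside the 0.46 of GCLC. GCLM was called with library weights (0.33, adjusted p = 0.0139) and in the blocked fit without number 2 (0.23, 0.0476). Those fits called 23.0% and 12.7% of all tested genes. The ratio of GCLM to GCLC was 4.43, 3.18 and 4.57 in OV143, against 4.67, 4.61 and 6.29 in Lv20NC, below it in every library (two-sided exact permutation test, p = 0.1, again the smallest possible). In 8 such comparisons, 4 for each ratio, these were the only 2 at that p, and both have a Benjamini-Hochberg adjusted p of 0.4 over the 8. Both ratios were chosen after the values were seen, and neither test could reach the threshold for a call, so they leave the question undecided. SRXN1, which repairs overoxidised peroxiredoxins, and HMOX1 overlapped between the groups, at 0.08 and -0.11. HMOX1 was at 2.90, 3.27 and 2.11 FPKM in OV143, against 3.28, 3.35 and 2.48 FPKM in Lv20NC, and it was lower in 3 of 3 pairs of the same number.

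Over the 10 genes 8 were higher and 2 lower in OV143, where 45.8% of all tested genes were higher, with a median log2 difference of 0.23 against -0.02 over all tested genes. In the wider list 73 of 76 genes were in the overexpression table and 66 passed the filter. Of these 43 were higher and 23 lower in OV143, with a median of 0.10. None of the 66 was called without the block. With it 3 fell and none rose, where 1.94% of all tested genes were called in either direction. Without OV143 replicate 2 and with no block 4 fell and 1 rose, against 4.46% of all tested genes. MAFF, a small MAF protein that can pair with NRF2, was at 17.6, 14.2 and 17.9 FPKM in OV143, against 31.3, 36.3 and 25.6 FPKM in Lv20NC. Its log2 difference was -0.86 (adjusted p = 0.124, or 0.0194 with the block). SESN2, a stress-induced sestrin, was at 9.01, 3.20 and 9.31 FPKM in OV143, against 22.3, 23.1 and 14.5 FPKM in Lv20NC. Its difference was -1.44 (0.229, or 0.0313 with the block), and -1.02 without OV143 replicate 2. SLC7A11, the cystine transporter that feeds glutathione synthesis, was at 5.03, 1.06 and 5.83 FPKM in OV143, against 10.2, 7.55 and 8.36 FPKM in Lv20NC. Its difference was -1.13 (0.370, or 0.0438 with the block), and -0.59 without OV143 replicate 2.

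The list is given by role as a description, and whether roles differ was not tested. Among the 9 regulators 7 were lower in OV143, with a median of -0.28, and 1 was called with the block, against 1.94% of all tested genes. In 5 of the 9 all OV143 libraries were below all Lv20NC libraries, where 12.9% of all tested genes were. NFE2L2 itself was at 70.9, 50.6 and 66.4 FPKM in OV143, against 80.3, 76.2 and 74.9 FPKM in Lv20NC. Each OV143 library was below each Lv20NC library, at a log2 difference of -0.31 (SE 0.14, adjusted p = 0.451, or 0.172 with the block). Without OV143 replicate 2 it was -0.17 (0.239). BACH1 was at 12.7, 5.88 and 11.4 FPKM in OV143, against 15.2, 12.95 and 15.6 FPKM in Lv20NC, a difference of -0.56 (0.455, or 0.0782 with the block), or -0.26 (0.166) without OV143 replicate 2. With library weights NFE2L2 (-0.21, adjusted p = 0.0335) and BACH1 (-0.32, 0.0279) were called, where 23.0% of all tested genes were called. KEAP1 differed by 0.23, or 0.09 without that library, and overlapped. All 6 genes of NADPH supply and all 8 tested genes of quinone, aldehyde and drug metabolism had positive differences, with medians of 0.16 and 0.12, and none of these 14 was called with or without the block. Of the 16 tested iron and heme genes 9 were higher and 7 lower, and none was called in those fits. TFRC differed by 0.10 and NCOA4 by 0.04, or by 0.19 and 0.17 without OV143 replicate 2.

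**Figure D4:**
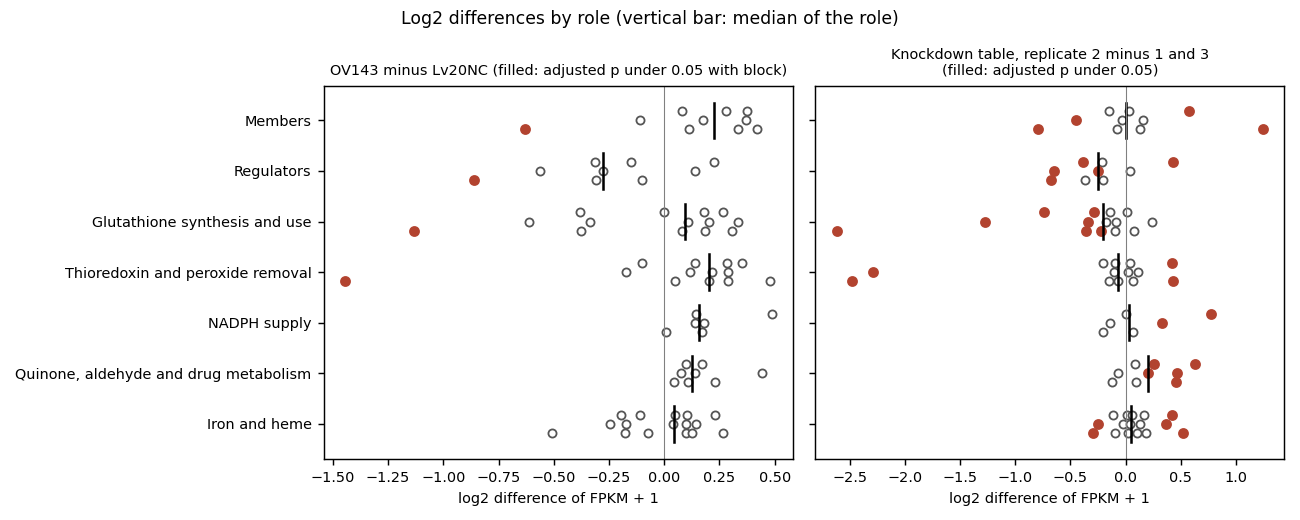
Log2 differences of FPKM + 1 for the 10 genes (Members) and for 76 further genes by role (points, one per tested gene; bars, medians). Left, OV143 minus Lv20NC, filled where the adjusted p with the block is under 0.05: the regulators have a median of -0.28 and the Members one of 0.23. Right, replicate 2 minus the mean of replicates 1 and 3 in the knockdown table, filled where the adjusted p is under 0.05: SLC7A11, SESN2 and TXNIP lie below -2.

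By the largest log2 difference, NQO1, FTL, SRXN1, OSGIN1, HMOX1 and TXNRD1 of the knockdown table differed more between replicate numbers than between vectors. BLVRA, FTH1 and GCLC did not. This ordering was not tested, and the share of all tested genes with the same ordering is not given here. For HMOX1 the log2 differences were -0.31 (replicate 3 minus 1) and 0.14 (Lv133KD minus Lv3NC). For TXNRD1 they were 0.13 (replicate 2 minus 1 and 3) and 0.08 (Lv133KD minus Lv143KD). GCLM was close on both, at 0.21 (replicate 3 minus 1) and 0.22 (Lv133KD minus Lv3NC). What a number marks is not stated in the labels. In a fit with terms for group and number, replicate 2 was set against the mean of replicates 1 and 3, and 4 of the 10 genes were called, 2 higher and 2 lower, where 34.0% of all tested genes were called, 13.2% higher and 20.8% lower. The groups of libraries did not overlap for 4 of 10, FTL, NQO1, TXNRD1 and SRXN1, against 31.2% of all tested genes. The members' share was thus near that of the whole table.

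NQO1 rose the most in the replicate 2 libraries. It was at 48.3, 45.1 and 40.5 FPKM in replicate 2 of Lv133KD, Lv143KD and Lv3NC, against 16.04 to 24.1 FPKM in replicates 1 and 3. The means were 44.6 ± 3.97 FPKM for number 2, 17.7 ± 1.03 FPKM for number 1 and 19.0 ± 4.47 FPKM for number 3 (SD, n = 3 each). The log2 difference was 1.25 (SE 0.09, limma adjusted p = 4.91e-05). FTL rose as well, with 5960.0, 5918 and 5823 FPKM in replicate 2 of Lv133KD, Lv143KD and Lv3NC, against 3586 to 4614 FPKM in replicates 1 and 3. The difference was 0.58 (SE 0.08, adjusted p = 0.00167), and FTL was the most abundant gene of the whole library in Lv133KD replicate 2. For both genes the call held without any 1 library, with log2 differences of 1.20 to 1.31 for NQO1 and 0.54 to 0.63 for FTL.

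FTH1 did not go with FTL. It averaged 1439.8 ± 99 FPKM in number 2, 1462 ± 5.09 FPKM in number 1 and 1581 ± 249 FPKM in number 3 (SD, n = 3 each), and was not called (-0.07, adjusted p = 0.500). The ratio of FTL to FTH1 was therefore 4.38, 4.21 and 3.75 in replicate 2 of Lv133KD, Lv143KD and Lv3NC, against 2.46 to 2.79 in replicates 1 and 3. In the overexpression table both chains were highest in OV143 replicate 2, and the ratio there was 1.80, within the range of 1.70 to 1.91 of the other libraries.

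SRXN1 and OSGIN1 fell in the replicate 2 libraries. SRXN1 was at 32.4, 29.5 and 33.98 FPKM in replicate 2 of Lv133KD, Lv143KD and Lv3NC, against 38.3 to 54.9 FPKM in replicates 1 and 3. The log2 difference was -0.45 (SE 0.09, adjusted p = 0.00511). OSGIN1 was at 1.85, 1.67 and 3.16 FPKM in replicate 2, against 2.51 to 6.04 FPKM in replicates 1 and 3. It overlapped through Lv3NC, where replicate 2 was above replicate 3, and differed by -0.80 (SE 0.17, adjusted p = 0.00840). Without Lv143KD replicate 2 the differences were -0.36 (adjusted p = 0.0597) for SRXN1 and -0.67 (0.0713) for OSGIN1, and the share of all tested genes called was 10.9%. Without the 3 Lv3NC libraries SRXN1 differed by -0.46 (0.0533). The other 6 genes, FTH1, HMOX1, GCLM, GCLC, TXNRD1 and BLVRA, were not called, with differences between -0.15 for GCLC and 0.16 for GCLM. TXNRD1 was above replicates 1 and 3 in every group at 23.8, 22.6 and 23.7 FPKM, against 19.3 to 22.47 FPKM, with a difference of 0.13 (adjusted p = 0.164). The gap between the closest libraries was small, 22.6 against 22.47 FPKM.

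**Figure D5:**
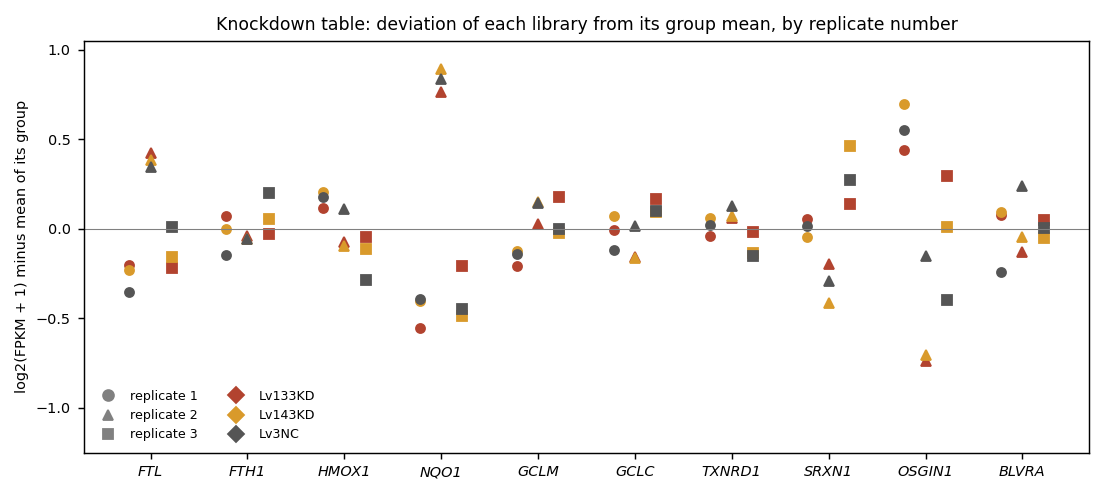
Deviation of each knockdown-table library from the mean of its group on the log2(FPKM + 1) scale, by gene; shape gives the replicate number and colour the group. The triangles of replicate 2 lie together above 0 for FTL and NQO1 and below 0 for SRXN1 and OSGIN1, in all 3 groups.

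NFE2L2 RNA was lower in the libraries with the highest NQO1 and FTL. The NRF2 protein was not measured, and whether its activity differed was not tested. NFE2L2 was at 11.6, 11.6 and 12.9 FPKM in replicate 2 of Lv133KD, Lv143KD and Lv3NC, against 16.5 to 21.7 FPKM in replicates 1 and 3. The log2 difference was -0.65 (SE 0.08, limma adjusted p = 0.000724). KEAP1 was 0.43 higher in number 2 (adjusted p = 0.0199), a call lost without any 1 of 4 libraries (Lv143KD replicates 2 and 3, Lv3NC replicates 1 and 2). BACH1 was not called (-0.20, adjusted p = 0.159). Of the 67 tested genes of the wider list 13 rose and 15 fell, where 34.0% of all tested genes were called, 13.2% higher and 20.8% lower. By role, 7 of 14 glutathione genes fell and none rose, 5 of 9 genes of quinone, aldehyde and drug metabolism rose and none fell, and 2 of 6 genes of NADPH supply rose and none fell. Of the 9 regulators 1 rose and 4 fell, of the 13 thioredoxin and peroxide genes 2 rose and 2 fell, and of the 16 iron and heme genes 3 rose and 2 fell. SLC7A11 was at 1.06, 0.96 and 2.19 FPKM in replicate 2 of Lv133KD, Lv143KD and Lv3NC, against 9.34 to 22.9 FPKM in replicates 1 and 3, a difference of -2.62. SESN2 was at 3.09, 3.01 and 8.99 FPKM, against 21.7 to 39.6 FPKM, a difference of -2.48. TXNIP, which binds and inhibits thioredoxin, fell, with a difference of -2.29, and PRDX1, an abundant peroxiredoxin, rose by 0.43. The calls of NFE2L2, SLC7A11, SESN2, TXNIP and PRDX1 held without any 1 library. TFRC was called at 0.42 (adjusted p = 0.0360), and this call was lost without most single libraries, while NCOA4 was not called (0.04).

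Fewer genes were called between replicates 3 and 1 of the knockdown table. None of the 10 genes was called in limma, where 0.120% of all tested genes were called, and 4 reached an unadjusted p under 0.05, against 30.7% of all tested genes. HMOX1 and OSGIN1 were lower in replicate 3 without overlap, where 20.7% of all tested genes did not overlap. HMOX1 was at 5.48, 4.62 and 3.96 FPKM in replicate 3 of Lv133KD, Lv143KD and Lv3NC, against 6.24, 6.0 and 5.85 FPKM in replicate 1. Its log2 difference was -0.31 (SE 0.10, adjusted p = 0.0939). OSGIN1 was at 4.82, 3.37 and 2.51 FPKM in replicate 3, against 5.44, 6.04 and 5.79 FPKM in replicate 1, a difference of -0.60 (SE 0.20, adjusted p = 0.0984). Without Lv133KD replicate 3 both were called, together with SRXN1, and 38.7% of all tested genes were called, so the count of calls depends on this 1 library.

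The control vectors can be set side by side, with the limit that the tables were normalised separately and no test was made. FTH1 was at 1457, 1551 and 1854 FPKM in Lv3NC libraries 1 to 3 and at 2908, 3184 and 2601 FPKM in Lv20NC libraries 1 to 3. BLVRA was at 7.23 to 10.5 FPKM in Lv3NC and 17.5 to 20.7 FPKM in Lv20NC, and HMOX1 at 3.96 to 5.85 FPKM in Lv3NC and 2.48 to 3.35 FPKM in Lv20NC. NFE2L2 was at 12.9 to 21.7 FPKM in Lv3NC and 74.9 to 80.3 FPKM in Lv20NC. The Lv20NC level of BLVRA was thus above that of Lv133KD and Lv143KD, 13.5 to 16.9 FPKM.

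Genes whose profile was most like the mean standardised profile of the 10 genes were listed as a description, over libraries that share vectors and replicate numbers. In the 9 knockdown libraries they included INPP4A (Pearson r of 0.97), PFKM (0.95), SMPD1 (0.94) and USP11 (0.93). In the 6 overexpression libraries they were RBM23, ZNF133 and LAMB3 (0.99 each) and THOC3 and ALKBH7 (0.98 each). None of these genes was named in both tables. In these bulk samples fewer cells of a kind and less RNA per cell cannot be told apart for any gene described here.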

How the data were processed

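Total RNA of 15 IPEC-J2 libraries, 3 in each of 5 groups, was sequenced. The authors deposited gene-level FPKM rounded to 2 decimals, as the file headers name it, in a knockdown table (9 libraries) and an overexpression table (6 libraries). The submitters' processing notes name the build Sscrofa11.1. An aligner, counting tool, annotation or strand setting was not given in the sources used here. FPKM keeps no read total, so depth is unknown. Symbols and 1-based coordinates came from a RefSeq gene table of Sscrofa11.1, which named 18618 of 19000 and 16949 of 17001 genes.

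Each table was fitted on its own as log2(FPKM + 1) with limma 3.58.1 in R 4.3.3. Genes entered at 1 FPKM or more in 3 or more libraries (11645 and 11506). Empirical Bayes variances followed a trend, tests were two-sided, p was adjusted by Benjamini-Hochberg over all genes tested, and the threshold for a call was 0.05. The fit was run on simulated data to check its log2 estimates. That simulation drew independent noise for each library, with no deviation shared by replicate number, so it does not check the calls made here. Same-numbered libraries deviated together from their group means. Their correlations were 0.27 to 0.85 in the knockdown table (9 pairs) and 0.23 to 0.72 in the overexpression table (3 pairs). All were over 0.1, so the number was also fitted as a block. Pairs of different numbers overlapped these ranges, at -0.87 to 0.38 (18 pairs) and -0.68 to 0.54 (6 pairs). OV143 replicate 1 went more with Lv20NC replicate 3 (0.54) than with Lv20NC replicate 1 (0.23). These correlations alone supply the pairing, as no label explains the numbers.

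The 10 genes and the list of 76 further genes, with the rule for naming them (called genes, at most 4 per role, plus NFE2L2, KEAP1, BACH1, TFRC, SLC40A1 and NCOA4), were chosen with earlier results of these data known. GSTP1 and ALAS1 had no match in either table. Alternatives were another pseudocount, no filter, scaling to one median, no variance trend, library weights and leaving out libraries. Leaving out one number from the blocked fit was added after the data were seen. A gene that the rule for similar profiles names is not reported here.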

Additional observations from a re-analysis of the deposited data

How the results depend on the processing

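Counts of the 10 genes called moved with the fit. Blocking on the replicate number, 1 was called in Lv133KD against Lv3NC and 1 in OV143 against Lv20NC, where the fit without it called 0, and it changed no call of the 10 in the other comparisons of groups. Weighting libraries by their quality, where the estimate of the weights did not fully settle in one table, gave 1 in Lv133KD, 1 in Lv143KD (BLVRA at 0.88) and 5 in OV143, against 1.76%, 0.601% and 23.0% of all tested genes. Leaving out 1 library or 1 number gave 0 to 1 in Lv133KD, where 0% to 0.618% of all tested genes were called. In OV143 it gave 0 to 7, against 0% to 12.7% of all tested genes. The 7 came from the blocked fit without number 2, where 12.7% of all tested genes were called on 1 residual degree of freedom. Leaving out 1 library gave 2 to 6 for replicate 2 and 0 to 3 for replicate 3, against 10.9% to 48.9% and 0% to 38.7% of all tested genes. The 6 and the 3 came without Lv133KD replicate 3, where 48.9% and 38.7% of all tested genes were called. Over the whole tables, the 2 genes called in Lv133KD became 30 with the block and 205 with weights, the 2 in Lv143KD became 20 and 70, and the 0 in OV143 became 223 and 2650. For replicate 2 the 3962 became 1269 to 5689 without 1 library, and for replicate 3 the 14 became 0 to 4506. The causes were not tested.

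Small differences changed sign, none of them called on all libraries with equal weights, with or without the block; GCLM in OV143 was called with library weights (0.33). Scaling to one median gave OSGIN1 at -0.0039 in Lv133KD. Library weights gave FTL 0.093 and OSGIN1 -0.15 in Lv133KD, FTL 0.10 and TXNRD1 0.021 in Lv143KD, and SRXN1 0.027 and OSGIN1 -0.090 between the knockdown vectors. Without the 3 Lv3NC libraries BLVRA was -0.13 for replicate 2, and FTH1 was -0.022 and BLVRA -0.088 for replicate 3. Without 1 library or 1 number, Lv133KD against Lv3NC ranged from -0.25 to 0.13 for FTL, -0.0028 to 0.23 for HMOX1, -0.060 to 0.74 for NQO1 and -0.31 to 0.40 for OSGIN1. Lv143KD against Lv3NC ranged from -0.21 to 0.15 for FTL, -0.14 to 0.11 for HMOX1, -0.35 to 0.52 for NQO1, -0.44 to 0.26 for OSGIN1, -0.30 to 0.13 for SRXN1 and -0.081 to 0.060 for TXNRD1. Lv133KD against Lv143KD ranged from -0.23 to 0.17 for FTL, -0.0076 to 0.20 for GCLM, -0.16 to 0.67 for NQO1, -0.23 to 0.49 for OSGIN1 and -0.29 to 0.14 for SRXN1. OV143 against Lv20NC ranged from -0.0078 to 0.27 for FTH1, -0.024 to 0.31 for GCLM, -0.21 to 0.023 for HMOX1, -0.030 to 0.18 for SRXN1 and -0.032 to 0.17 for NCOA4. Replicate 2 ranged from -0.13 to 0.15 for BLVRA and -0.13 to 0.026 for HMOX1, and replicate 3 from -0.14 to 0.11 for BLVRA and -0.059 to 0.15 for NQO1. BLVRA in Lv133KD, Lv143KD and OV143 and OSGIN1, GCLC and TXNRD1 in OV143 kept their direction in every alternative run.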
